A study of Mus musculus with 4 samples.

Results

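Klf9 and 4 of its closest relatives, Klf13, Klf16, Klf10 and Klf11, were followed in whole mouse hearts that carried or lacked Klf9. The 5 genes were taken by symbol from a table of 17485 genes, and all 5 were found and passed the filter that left 12135 genes for testing. Total RNA was sequenced in 2 libraries of wild-type (WT) hearts and 2 libraries of Klf9 knockout (Klf9 KO) hearts, from male mice of 8 weeks per the labels. The labels named no strain, no deleted segment and no cross, so that the allele is known here only as Klf9 KO, and they gave no treatment beyond random food and drink. The stated purpose concerned Klf9 and the mitochondria of the heart, and the comparison read here is whether the repressor-type relatives were higher where Klf9 was lost.

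Krüppel-like factors bind GC-rich and CACCC-type DNA through zinc fingers at the end of the protein, and the fingers differ little between relatives. Klf9, Klf13 and Klf16 form the group once called BTEB proteins, and Klf10 and Klf11 are the TGF-beta-inducible early genes. All 5 proteins can bind the corepressor Sin3a through a short helix outside the fingers, which recruits histone deacetylases, although Klf9 and Klf13 activate some promoters. Klf9 is induced by glucocorticoid and thyroid hormone and by oxidative stress, and Klf13 is known in the heart as a partner of Gata4.

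Since these factors read GC-rich DNA, the 250 bases upstream of the start site are shown for Klf9, for Klf11, the relative with the greatest rise, and for Klf13, which did not pass the test. The sequences are those of RefSeq on GRCm38.p6, in which 3 of the 5 genes had an entry. They lie at chr19:23140976-23141225 on the plus strand for Klf9, chr12:24651121-24651370 on the plus strand for Klf11 and chr7:63938916-63939165 on the minus strand for Klf13. Capitals mark matches on either strand to the GC box GGGCGG or the CACCC box CACCC.
Klf9: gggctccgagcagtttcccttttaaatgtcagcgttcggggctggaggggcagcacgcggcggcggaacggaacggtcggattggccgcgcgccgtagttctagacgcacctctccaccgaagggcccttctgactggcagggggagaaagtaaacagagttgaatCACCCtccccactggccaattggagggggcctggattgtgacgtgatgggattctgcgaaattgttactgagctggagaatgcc
Klf11: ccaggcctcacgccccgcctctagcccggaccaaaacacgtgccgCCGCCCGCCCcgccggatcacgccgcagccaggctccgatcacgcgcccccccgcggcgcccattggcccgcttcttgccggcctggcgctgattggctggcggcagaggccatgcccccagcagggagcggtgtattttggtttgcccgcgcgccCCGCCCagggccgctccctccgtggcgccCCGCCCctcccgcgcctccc
Klf13: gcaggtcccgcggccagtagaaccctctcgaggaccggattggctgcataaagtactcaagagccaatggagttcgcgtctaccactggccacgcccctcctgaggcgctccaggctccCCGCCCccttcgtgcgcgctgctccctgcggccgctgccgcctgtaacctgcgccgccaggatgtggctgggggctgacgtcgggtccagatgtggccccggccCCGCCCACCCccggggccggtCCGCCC
The Klf9 window held 0 GC boxes and 1 CACCC box, the Klf11 window 4 GC boxes and 0 CACCC boxes, and the Klf13 window 3 GC boxes and 1 CACCC box. A pair of GC boxes overlap in the Klf11 window, and a GC box overlaps the CACCC box in the Klf13 window. Of 32851 upstream windows of this length in the RefSeq table, 32.7% held at least 1 GC box and 52.0% at least 1 CACCC box. The share of G and C was 59.6% in the Klf9 window, 76.8% in that of Klf11 and 71.6% in that of Klf13. The median over all windows was 52.4%, so these shares of windows are not matched for base content. A match describes these letters and not a bound site. Klf16 lies on chromosome 10 and Klf10 on chromosome 15 in the GENCODE M21 annotation. In that annotation the longest stretch of bases shared by transcripts of any 2 of the 5 genes was 20 (Klf16 and Klf11). The sources used here do not say how reads were assigned to genes or whether strand was used. Klf13 has 2 annotated genes on the opposite strand, Gm27252 and E030018B13Rik, for which the table held no rows.

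The libraries differed in more than Klf9, which bears on every result that follows. Tnni1, the slow skeletal troponin I of the heart before birth and early after it, stood at 0.16 and 0.01 in WT libraries and at 656 and 994 in Klf9 KO libraries, although the labels gave the same age for all 4. The Y-linked gene Ddx3y was at 14.6 and 17.1 in WT and at 7.82 in Klf9 KO replicate 1. It was at 0.01, the smallest value the table can hold, in Klf9 KO replicate 2, which was labelled male. Esr1, the estrogen receptor alpha, was at 3326 and 2726 in WT and at 0.09 and 0.03 in Klf9 KO. The loss of Klf9 and the other differences between the groups, such as those in Tnni1 and Esr1, cannot be told apart in this design. The near-absence of Ddx3y, in contrast, sets Klf9 KO replicate 2 apart from Klf9 KO replicate 1 as well as from WT. The labelled tissue was checked on its markers. All 10 cardiomyocyte genes were measured, with a summed value of 33158 to 38375 in WT and 38121 to 39872 in Klf9 KO, and 9 did not pass while Tnni3 was lower. Macrophage markers summed to 193 to 332 in WT and 55.3 to 55.7 in Klf9 KO (5 of 6 lower), and fibroblast markers to 380 to 538 and 806 to 885 (3 of 6 higher, 1 lower). The numbers of higher markers were 3 of 6 for endothelium, 3 of 6 for smooth muscle and pericytes (1 lower), 3 of 4 tested for atrial myocytes (1 lower), 4 of 4 tested for epicardium, 1 of 6 for red cells and 1 of 1 tested (Ager) for lung or thymus. Over all tested genes 27.7% were higher and 17% lower. Lower markers were found for lymphocytes (1 of 1 tested) and skeletal muscle (1 of 2 tested), and of adipocyte markers 0 were tested. In whole tissue, fewer cells of a type and less RNA per cell cannot be told apart, and the part of these differences in the results on the Klf genes was not tested.

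Values are expression levels per library recovered from deposited ratios, in a unit that was not given, so levels are compared between libraries for 1 gene and not between genes. Fold changes were fitted with limma on log2(value + 1), with 2 libraries per group and p-values adjusted over all 12135 genes by the Benjamini-Hochberg method. The labels do not tie libraries to animals. A p-value here therefore rests on how far libraries of 1 group lie apart, and that distance may be technical only. Because limma moderates the variance, the distance is that of the gene itself blended with that of other tested genes. The SE of a gene thus does not measure its own spread alone. With 2 libraries against 2 the smallest exact two-sided permutation p is 0.333. All 12135 genes had 3367 higher and 2061 lower in Klf9 KO at an adjusted p below 0.05, which is 27.7% and 17% of those tested, and after RLE scaling the share of higher genes among the calls went from 62.0% to 50.3%. Without Klf9 KO replicate 1 the counts were 2195 and 1247, without Klf9 KO replicate 2 they were 1859 and 1100, and without WT replicate 1 there were 3261 lower genes.

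Klf9 itself (Entrez 16601) was nearly gone from the knockout hearts. Its value was 74.9 and 58.8 in the WT libraries and 2.66 and 1.99 in the Klf9 KO libraries, so that the groups lay far apart. The 4 deposited log2 ratios of a Klf9 KO over a WT library ran from -5.23 to -4.47, which is a level 22.1 to 37.6 times lower. The fitted log2 fold change was -4.35 ± 0.20 (SE, n = 2 per group; limma adjusted p = 3.46e-06), rank 12 from the lowest of the 12135 tested genes. This is the targeted gene, and it was low in both libraries labelled Klf9 KO, whose other label details are in doubt as given above. A remainder of 1.99 to 2.66 was still read, and which part of the transcript it came from cannot be seen in a value per gene.

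**Figure D1:**
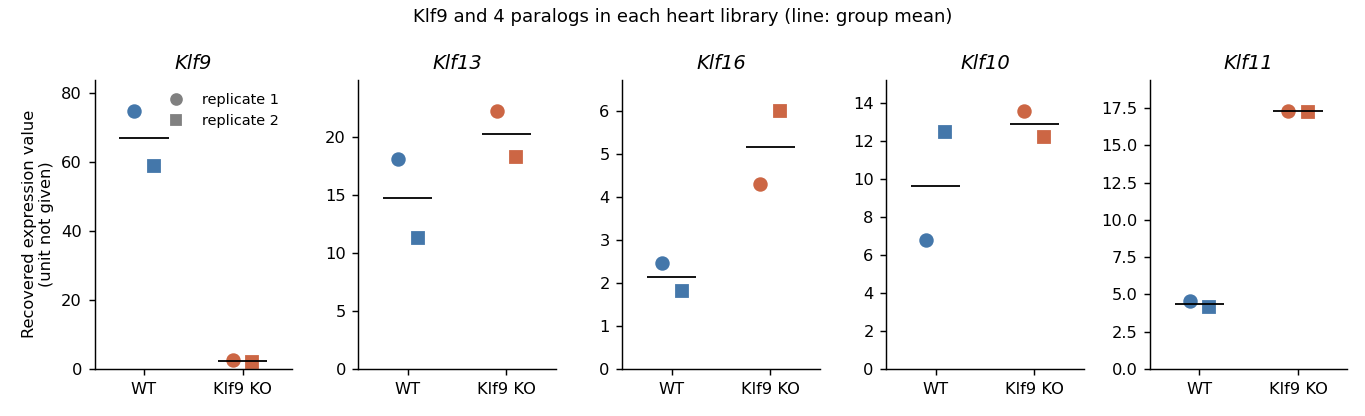
Recovered expression value (vertical axis, from 0, unit not given, own scale per gene) of Klf9, Klf13, Klf16, Klf10 and Klf11 in each WT (blue) and Klf9 KO (orange) library; circles are replicate 1, squares replicate 2, lines group means. Klf9 drops from 74.9 and 58.8 to 2.66 and 1.99, Klf11 climbs from 4.56 and 4.17 to 17.3 and 17.3, and the groups overlap in Klf10.

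All 4 relatives had a positive fitted fold change, and 2 of them, Klf11 and Klf16, rose past the threshold. Among all genes tested 27.7% did so, and the members' share is too small a count to set apart from that. In 3 of the 4, both Klf9 KO libraries lay above both WT libraries without scaling, which held for 45.2% of all genes tested. For Klf13, 1 of these 3, the order did not hold after RLE or upper quartile scaling. The median log2 fold change over all tested genes was 0.12, and RLE scaling moved it to -0.01.

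Klf13 (Entrez 50794) belongs to the same group as Klf9 and did not pass. It stood at 18.1 and 11.3 in WT and at 22.2 and 18.3 in Klf9 KO. The lower Klf9 KO library and the higher WT library differed by 0.02 on the log2 scale, so before scaling the groups touched without crossing. The RLE factors were 0.935 for WT replicate 1 and 1.065 for Klf9 KO replicate 2. Divided by these, the WT library was the higher of the pair, as also after upper quartile scaling (0.959 and 1.04). The fold change was 0.47 ± 0.24 (SE; limma adjusted p = 0.140), with a 95% interval from -0.07 to 1.0. The WT libraries alone were 1.60-fold apart, a wider gap than that between the group means of 14.7 ± 4.79 in WT and 20.3 ± 2.81 in Klf9 KO (SD, n = 2 each). Its call rests on which WT library is read: without WT replicate 1 the fold change was 0.78 and passed (limma adjusted p = 0.000858), and without WT replicate 2 it was 0.15 (limma adjusted p = 0.435).

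Klf16 (Entrez 118445), the other relative of that group and a factor known from dopamine receptor promoters, rose. It stood at 2.47 and 1.82 in WT and at 4.31 and 6.01 in Klf9 KO. Both Klf9 KO libraries were above both WT libraries, and the Klf9 KO libraries were 1.39-fold apart, a distance that 7.59% of tested genes reached. The fold change was 0.96 ± 0.20 (SE; limma adjusted p = 0.00505), and on the ratios themselves, with no pseudocount, it was 1.26 ± 0.27 (SE; limma adjusted p = 0.00672). Without Klf9 KO replicate 2 it was 0.76 and no longer passed, the only change of its call over 11 alternatives. Klf9 KO replicate 2 is the library with the low Y-linked genes.

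Klf10 (Entrez 21847), an immediate target of TGF-beta signalling, did not pass. It stood at 6.77 and 12.45 in WT and at 13.6 and 12.2 in Klf9 KO, and 1 WT library was above 1 Klf9 KO library. The fold change was 0.44 ± 0.25 (SE; limma adjusted p = 0.188), with a 95% interval from -0.13 to 1.01. The 2 WT libraries differed 1.84-fold, a distance that 6.76% of tested genes reached, while the Klf9 KO libraries differed 1.11-fold. Here WT replicate 1 was the low library, where for Klf13 it was the high one. Without WT replicate 2 the fold change was 0.83 and passed (limma adjusted p = 0.000630), and without WT replicate 1 it was 0.04 (limma adjusted p = 0.813).

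Klf11 (Entrez 194655), the partner of Klf10 in the TGF-beta-inducible group and a repressor studied in insulin and monoamine oxidase promoters, showed the greatest rise of the 4. It went from 4.56 and 4.17 in WT to 17.33 and 17.26 in Klf9 KO, with no overlap and little spread in either group. The 4 pairwise ratios were 3.79-fold to 4.16-fold. The fold change was 1.77 ± 0.17 (SE; limma adjusted p = 7.64e-05), and 2.79% of the tested genes had a higher one. It passed under all 12 alternatives, with fold changes from 1.64 to 1.99 and limma adjusted p up to 0.00307. Each of its 4 pairwise ratios was above each of those of Klf13, Klf16 and Klf10, a difference that was not tested.

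**Figure D2:**
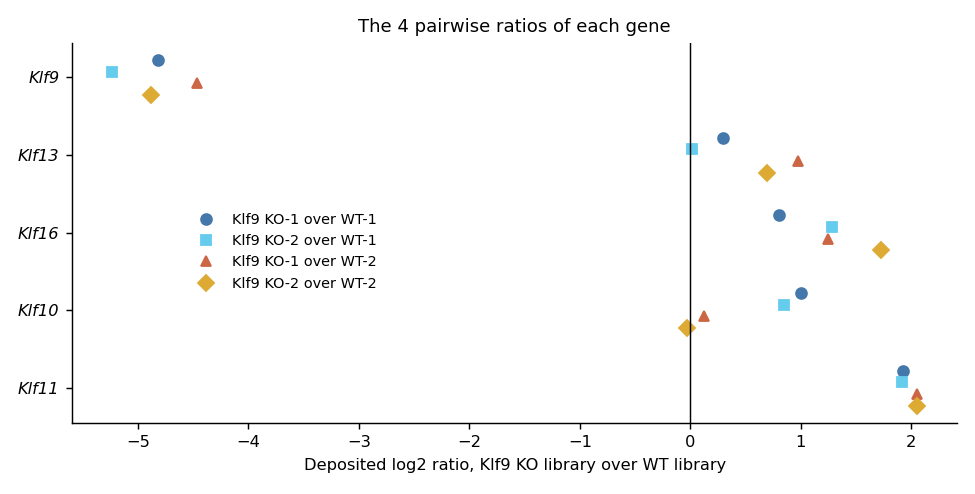
Deposited log2 ratio of each Klf9 KO library over each WT library (horizontal axis) for the 5 genes, with 1 symbol per pair of libraries. The 4 ratios of Klf11 sit between 1.92 and 2.06, those of Klf16 between 0.80 and 1.72, and those of Klf13 and Klf10 reach down to 0.02 and -0.03.

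The pairwise ratios of Klf13 and Klf10 split by WT library. For Klf13 the log2 ratios were 0.30 and 0.02 over WT replicate 1, and 0.98 and 0.69 over WT replicate 2. For Klf10 the order was turned, with 1.003 and 0.85 over WT replicate 1, and 0.12 and -0.03 over WT replicate 2. Pairs share libraries, so 4 ratios are not 4 independent measurements. In the authors' deposited table, the Poisson p-value of Klf13 was 1.31e-56 for Klf9 KO replicate 1 over WT replicate 2 and 0.762 for Klf9 KO replicate 2 over WT replicate 1. In the authors' deposited table, the DEGseq q-value was below 0.05 for all 4 relatives in the upward direction, as for 41.3% of the 16254 genes with a q-value, with log2 ratios of 0.41 for Klf13, 1.24 for Klf16, 0.49 for Klf10 and 1.98 for Klf11. Counting is the sole error in such a model.

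**Figure D3:**
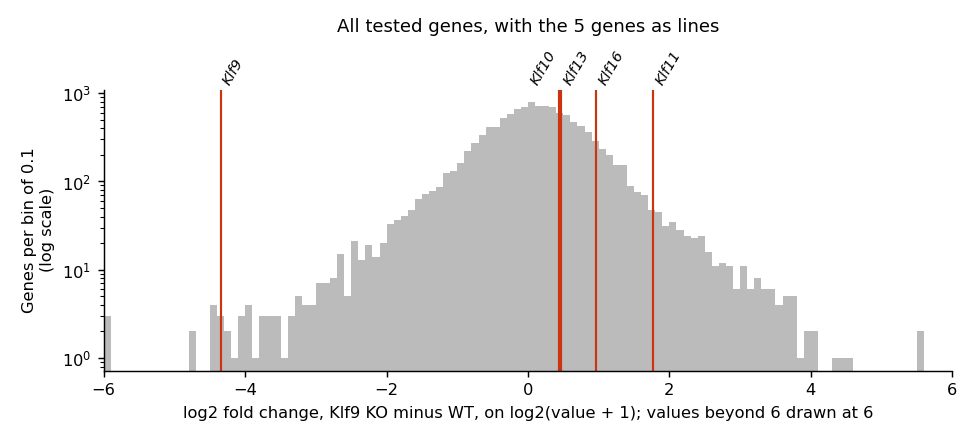
Number of tested genes (vertical axis, log scale) by log2 fold change, Klf9 KO minus WT, on log2(value + 1) (horizontal axis, bins of 0.1), with red lines at the 5 genes. Klf9 stands at the lower edge, Klf10 (0.44) and Klf13 (0.47) within the bulk, Klf16 at 0.96 and Klf11 at 1.77.

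The fold changes of the 4 relatives kept a positive sign in all 47 fits made with another setting, of which 12 were made for each gene save Klf16 (11). Another filter, another variance moderation or the replicate block leaves the fold change itself as it was, so those fits could not alter a sign. The rest reuse the same 4 libraries, so the count of 47 is not a count of independent checks. The largest shift came from leaving out a WT library, for Klf13 and Klf10. Scaling by RLE gave 0.32 for Klf13, 0.85 for Klf16, 0.30 for Klf10 and 1.64 for Klf11, and changed no call.

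**Figure D4:**
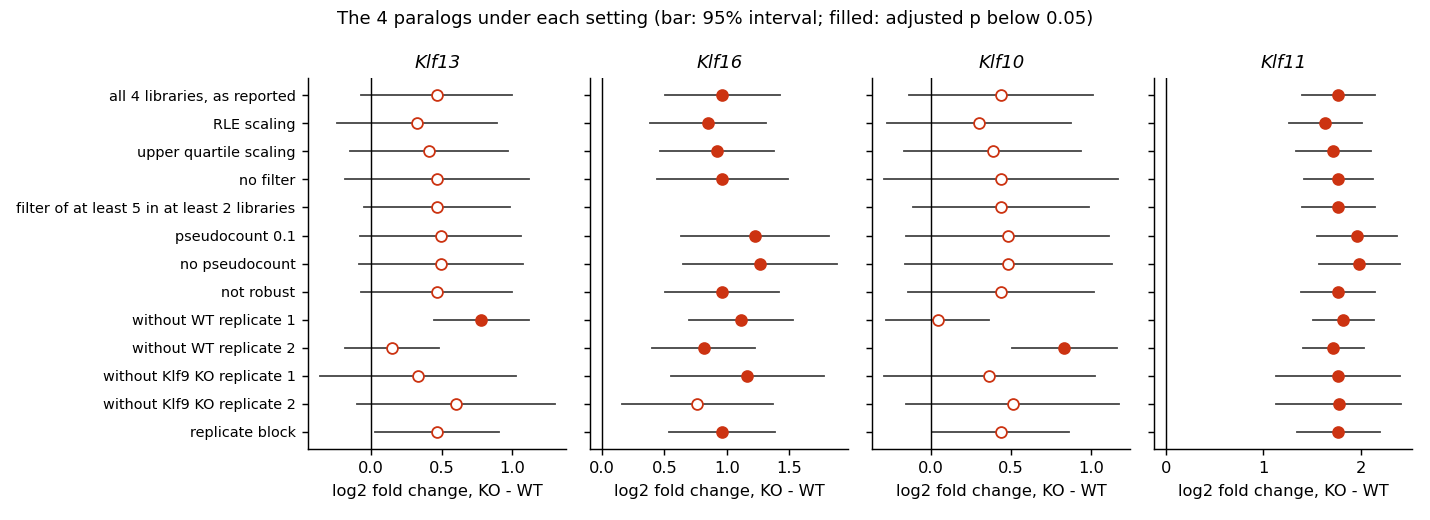
Fitted log2 fold change, Klf9 KO minus WT (horizontal axis), of the 4 relatives under each setting (rows), with 95% intervals; filled points have a limma adjusted p below 0.05. Klf11 is filled in every row; Klf16 is open without Klf9 KO replicate 2, Klf13 is filled only without WT replicate 1 and Klf10 only without WT replicate 2.

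The Sin3 complex is the corepressor that these factors share. Of its 18 genes, 7 rose (38.9%), 0 fell and 11 did not pass, where 27.7% of all tested genes were higher and 17% lower. After RLE scaling 5 rose, and from counts of this size the complex is not set apart from all genes. The list median was 0.27, and that of all tested genes 0.12. The scaffold Sin3a, to which the 5 factors bind, went from 8.63 and 8.76 to 13.1 and 12.5, a fold change of 0.51 ± 0.17 (SE; limma adjusted p = 0.0341). Its relative Sin3b went from 22.4 and 24.6 to 33.9 and 37.8 (0.59 ± 0.18). After RLE scaling the fold change was 0.37 for Sin3a and 0.44 for Sin3b, the lowest among the 7 genes that rose before scaling. The histone-binding subunit Rbbp4 went from 29.7 and 36.1 to 56.7 and 65.1 (0.87 ± 0.19), Sap30 changed by 0.84 ± 0.20, and the deacetylase Hdac1 by 0.76 ± 0.18. The second deacetylase, Hdac2, had 19.9 and 32.35 in WT and 30.3 and 31.5 in Klf9 KO and did not pass. Without Klf9 KO replicate 1 the number that rose was 3, and without Klf9 KO replicate 2 it was 0 by limma (4 at an unadjusted p below 0.05). With all libraries 1 gene, Sap30l, was lower at an unadjusted p below 0.05 in limma. It was called lower after RLE or upper quartile scaling and without WT replicate 1.

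Klf10 and Klf11 take their other name from TGF-beta, so the ligands, receptors and Smads of that pathway were read beside them. Of 17 genes 7 rose, 1 fell and 9 did not pass, beside 27.7% higher and 17% lower over all tested genes, with a list median of 0.28. Of the 3 ligands, Tgfb1 went from 33.3 and 16.7 to 44.9 and 51.2 (0.99 ± 0.29; limma adjusted p = 0.0224) and Tgfb2 from 4.71 and 3.25 to 7.96 and 8.60 (0.91 ± 0.19), while Tgfb3 (0.19) did not pass. None of the 3 receptor genes passed, with Tgfbr1 at 0.28, Tgfbr2 at -0.07 and Tgfbr3 at -0.12. Smad3, which carries the signal to DNA, went from 6.25 and 3.87 to 11.2 and 11.1 (1.03 ± 0.21), and Tgif1, a repressor of Smad targets, changed by 0.73 ± 0.16. Smad7, the inhibitory Smad that Klf10 and Klf11 repress, had 3.65 and 2.86 in WT and 1.93 and 3.01 in Klf9 KO and did not pass (-0.31 ± 0.21; limma adjusted p = 0.254). Without Klf9 KO replicate 2 the number that rose was 3.

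Receptors and enzymes that act upstream of Klf9 went both ways. Of 15 genes, 12 passed the filter, of which 1 rose and 3 fell (8.33% and 25%, beside 27.7% and 17% over all tested genes). The thyroid hormone receptor genes moved apart: Thra went from 34.8 and 24.2 to 99.01 and 113 (1.83 ± 0.22; limma adjusted p = 0.000296), and Thrb from 4.81 and 4.99 to 1.29 and 0.71 (-1.58 ± 0.19; limma adjusted p = 0.000303). Hsd11b1, the enzyme that regenerates active glucocorticoid in tissue, fell from 8.59 and 21.0 to 0.25 and 0.20 (-3.57 ± 0.33), and the third that fell was Esr1, given above. The glucocorticoid receptor Nr3c1 (3.58 and 3.32 against 4.17 and 3.84) did not pass, nor did the mineralocorticoid receptor Nr3c2 (-0.44 ± 0.20). The stress regulator Nfe2l2 had a fold change of -0.14 ± 0.19 and its inhibitor Keap1 one of -0.30 ± 0.17. Without WT replicate 2, 5 genes of the list fell.

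Of 16 genes described as targets of one or another of the 5 factors, 12 were tested, 2 rose and 3 fell (16.7% and 25%, beside 27.7% and 17% over all tested genes), with a list median of 0.02. Ppargc1a, a coactivator of mitochondrial genes that Klf9 regulates in liver, had 34.8 and 29.8 in WT and 35.03 and 30.01 in Klf9 KO (0.01 ± 0.19; limma adjusted p = 0.975). Mfn2, a fusion protein of the outer mitochondrial membrane, had 277 and 191 against 241 and 227 (0.02 ± 0.24; limma adjusted p = 0.945). Both values were below 0 after RLE scaling, at -0.14 and -0.12. Txnrd2, a mitochondrial thioredoxin reductase that Klf9 is known to repress, had 15.7 and 17.2 against 14.96 and 14.91 and did not pass. Pparg, which Klf9 activates in fat cells, fell from 11.97 and 19.98 to 3.58 and 3.70 (-1.83 ± 0.23; limma adjusted p = 0.000382). The natriuretic peptide genes Nppa (-0.92 ± 0.24) and Nppb (-0.69 ± 0.24), which Klf13 activates with Gata4, also fell. Nos3, a target described for Klf11 in endothelium, rose from 13.6 and 10.35 to 27.3 and 31.1 (1.23 ± 0.20). Of the 6 endothelial markers counted above, 3 were higher and 3 did not pass, and any relation to Nos3 was not tested. Without Klf9 KO replicate 1, 1 gene of the list fell.

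**Figure D5:**
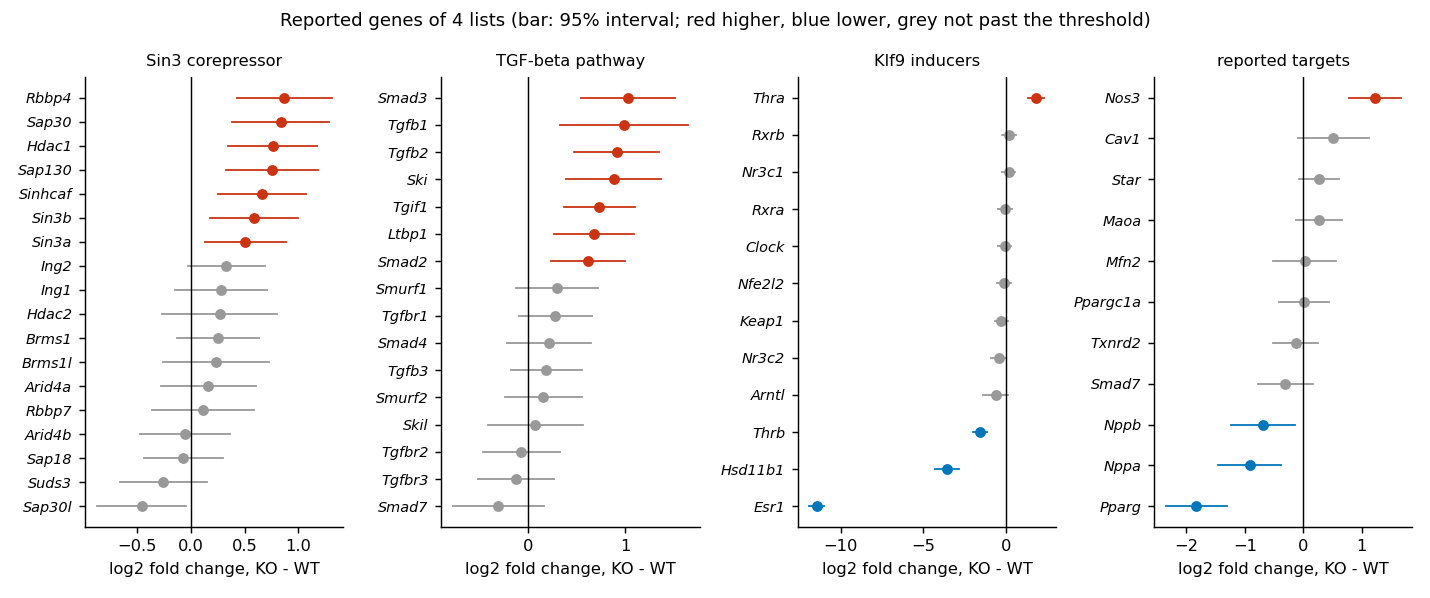
Fitted log2 fold change, Klf9 KO minus WT (horizontal axis, own scale per panel), of the genes reported here from the Sin3 complex, the TGF-beta pathway, the inducers of Klf9 and reported targets, with 95% intervals; red is higher, blue lower and grey not past the threshold. The Sin3 panel has 7 red and 0 blue points, the TGF-beta panel 7 and 0, the inducers 1 and 3, and the targets 1 and 3.

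Genes whose pattern over the 4 libraries was closest to each Klf gene were found by the Euclidean distance between centred profiles of log2(value + 1), among 11525 genes. With 4 libraries in 2 groups such nearness is mostly the size of the fall or rise. Among the nearest to Klf9 were the complement gene C3 (distance 0.19; 213 and 190 in WT, 9.99 and 7.03 in Klf9 KO), Cpxm2 (0.25), Prune2 (0.28) and the sodium channel subunit gene Scn4b (0.41). Nearest to Klf11 were Zfp618 (0.05) and Klhdc3 (0.07; 32.1 and 30.3 against 103 and 107). Nearest to Klf16 were Radil (0.05) and Stk32c (0.06), to Klf13 Tulp4 (0.05) and the cardiac myosin gene Myh6 (0.06), and to Klf10 Atpif1 (0.13) and Zfp566 (0.14). Klf13 and Myh6 were alike in being lower in WT replicate 2 than in the other libraries, with Myh6 at 7101 and 4788 in WT and 8725 and 7138 in Klf9 KO.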

How the data were processed

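The authors deposited 1 table of comparisons, with no counts, so that sequencing depth is unknown and no interval that needs it is given. Per the file headers it holds a log2 ratio, a Poisson p-value and a false discovery rate for each pair of a WT and a Klf9 KO library, and a log2 ratio with DEGseq p- and q-values for the groups. The deposited rate for 1 pair exceeds 1 and was treated as a score. For the aligner, the build and the counting, the sources used here give nothing.

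The value of each library was recovered as the smallest whole numbers that give the ratios of all 17485 genes, read in steps of 0.01. All 4 ratios were present for 16152 genes. The 2317 missing ratios were read, by assumption, as both libraries at 0.01. Of the 12135 genes tested, 12132 had all 4 ratios. The recovered values returned the deposited ratios to within 5.0e-14. A factor common to all 4 values of a gene is lost (expected for 7.61% of genes), which lowers its level but not its ratios. Values summed to 409359 to 489534 per library. The plan allowed for counts and, as none were there, used limma 3.58.1 (R 4.3.3, trend and robust) on log2(value + 1), without scaling, for 12135 genes with at least 1 in at least 2 libraries. The pseudocount understates changes of low genes. The fit was tested on simulated data. Python 3.11.15 with scipy 1.17.1 gave exact permutation tests.

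The members and lists were chosen with earlier results of these data known. Named genes are the 5 Klf genes, up to 3 called genes per list and direction with the lowest p, Sin3a, Sin3b, Ppargc1a and Mfn2, and the nearest patterns; others were added after their values were seen, among them Tnni1, Ddx3y and list genes that did not pass. Markers are given by list. Some genes that the rule takes are counted but not reported here. Alternatives were scaling (RLE, upper quartile), the filter, the pseudocount, variance moderation, each library left out, and a replicate block.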

Additional observations from a re-analysis of the deposited data

How the results depend on the processing

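With single libraries left out, the number of higher genes ranged from 1859 to 4327 and of lower genes from 1100 to 3261, and the log2 fold changes ranged from 0.15 to 0.78 for Klf13, 0.76 to 1.16 for Klf16 and 0.043 to 0.83 for Klf10. A fit with 1 library in a group assumes that it varies like the other group. The calls of Klf9 and Klf11 held under all 12 alternatives, at -4.85 to -4.18 and 1.64 to 1.99. With a filter of at least 5 in at least 2 libraries Klf16 was not tested. Leaving out 1 library changed the call of Klf13, Klf10 or Klf16, as given above. With all 4 libraries kept, no other setting changed the call of a Klf gene.

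Replicate numbers are shared between groups, but nothing in the labels pairs the libraries, and deviations of WT replicate 1 and Klf9 KO replicate 1 from their group means were correlated at -0.04 over tested genes. With the replicate block there were 3514 higher and 2275 lower genes, and the adjusted p was 0.0753 for Klf13 (0.47), 0.0855 for Klf10 (0.44), 4.42e-05 for Klf16 (0.96) and 7.30e-15 for Klf11 (1.77). The block changed no call of a Klf gene. Its fit gave an SE of 0.22 for every Klf gene, where the fit without it gave 0.17 for Klf11 and 0.25 for Klf10. The block p-values thus rest on a variance shared over genes and hardly on a gene's own spread. They are not stronger evidence than those without the block.

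The Sin3 list had 0 to 10 higher genes with single libraries left out, the TGF-beta list 3 to 9. A pseudocount of 0.1 in place of 1 moved Klf9 from -4.35 to -4.79 and Klf16 from 0.96 to 1.22.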
